A study of Homo sapiens with 8 samples.

Results

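The HOX genes are the 39 protein-coding genes whose symbols are HOXA, HOXB, HOXC or HOXD followed by a number, taken from a table of 19961 human protein-coding genes. They lie in 4 clusters, HOXA on chromosome 7, HOXB on chromosome 17, HOXC on chromosome 12 and HOXD on chromosome 2. They are grouped here by cluster and by paralog number, the number in the symbol, which matches related genes across clusters. YTHDF2 binding was recorded at 127 distinct positions inside their spans, of 37613 in the whole list.

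The positions come from iCLIP2 of YTHDF2, a cytoplasmic protein that binds N6-methyladenosine (m6A) in RNA and recruits mRNA decay factors. In iCLIP2, RNA that ultraviolet light has joined to YTHDF2 is pulled down with the protein, and the place where the cDNA breaks off marks the contact to the nucleotide. HEK293T, the human embryonic kidney cell line used, was labelled wild type. STM2457, which blocks the m6A methyltransferase METTL3, was given at 20 µM in 0.2% DMSO for 12 h to the cells of 4 libraries, and 0.2% DMSO alone for 12 h to those of the other 4. The labels do not say whether replicates were separate cultures. The list analysed here names no library, and which of the libraries went into it is not stated. It has 1 score per row and no value per library. STM2457 and DMSO were therefore not compared for any HOX gene, and neither replicate spread nor the read depth behind a site is known. What follows compares sites and genes within 1 list, without tests.

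HOX proteins are homeodomain transcription factors that give cells their identity along the body axis. Genes at the 3′ end of a cluster, with low paralog numbers, act towards the head, and those at the 5′ end, with high numbers, act towards the tail and in the limbs and urogenital tract. Genes of 1 paralog number in different clusters arose by duplication of an ancestral cluster and often have overlapping roles. The embryonic kidney uses posterior HOX genes, with the paralogs of number 11 required for its development in the mouse.

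A YTHDF2 site was found in 32 of the 39 HOX genes (82.1%), against 40.4% of all protein-coding genes by the same count of sites inside the span. HOX genes are compact, with a median span of 3.79 kb against 24.0 kb over all protein-coding genes. Of the 33 HOX genes spanning 10 kb or less, 26 had a site, against 27.7% of all protein-coding genes of that size. Bound genes of that size had a median of 3.5 sites in HOX genes and 3 over all genes, or 0.901 sites per kb of genomic span in HOX genes and 0.615 over all genes. At least 5 sites were found in 11 HOX genes (28.2%), against 15.7% of all protein-coding genes, and at least 9 in 6 (15.4%), against 6.37%. The cutoff of 9 equals the lowest count among the 6 HOX genes described site by site below, so it is not independent of these data. HOXA3 passes both cutoffs with 10 sites, of which only 3 lie in its span alone. The share of genes bound was thus higher among HOX genes than over all genes at each of these cutoffs, and the median number of sites in a bound compact gene was close to that over all genes. No test of these differences was made. RNA levels were not measured here, so a gene whose RNA was absent or scarce and a gene whose RNA was not bound cannot be told apart.

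All 127 positions lay on the strand that the promoter table gives for the cluster, which is minus for HOXA and HOXB and plus for HOXC and HOXD. None of them (0) lay on the opposite strand, from which several antisense RNAs of the clusters are made. HOX spans overlap, because transcripts of some genes, among them HOXA3, HOXB3, HOXC4 and HOXC5, run across neighbouring genes on the same strand. Of the 127 positions, 117 lay in a single HOX span, 8 in 2 spans and 2 in 3. Strand does not resolve these 10, and they are counted for every gene whose span holds them. Sites of 6 bound genes, HOXA4, HOXA5, HOXA6, HOXB4, HOXC5 and HOXC6, were all of this shared kind. With shared positions left out, 26 HOX genes had a site (66.7%), against 37.2% of protein-coding genes by sites in no other protein-coding span.

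HOXC4 and HOXC5 show how the overlap arises. RefSeq (GRCh38.p14) gives them the same start, at which the HOXC6 span begins as well. The promoter window around that start is shown because it is one sequence for HOXC4 and HOXC5. It covers chr12:54016638-54016937 on the plus strand, with the bases from the start of transcription onwards in capitals.
HOXC4 and HOXC5: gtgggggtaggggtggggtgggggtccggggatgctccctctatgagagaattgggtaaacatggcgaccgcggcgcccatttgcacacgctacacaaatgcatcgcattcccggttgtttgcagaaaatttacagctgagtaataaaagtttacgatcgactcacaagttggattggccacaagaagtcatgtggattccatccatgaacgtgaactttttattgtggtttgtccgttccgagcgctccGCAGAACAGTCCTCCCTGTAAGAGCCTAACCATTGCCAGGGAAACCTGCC
No site lay in this window. The first sites downstream were at 54028800 and 54029968, which are 11912 and 13080 nt from that start and lie in the spans of HOXC4, HOXC5 and HOXC6 alike, at scores of 2.26 and 3.58. The 2 sites in the HOXC4 span alone were at 54053836 and 54053948, more than 36 kb from the shared start, and scored 6.75 and 28.6. HOXC4, which takes part in antibody gene diversification in B cells, thus has 2 sites of its own, while HOXC5 and HOXC6 have none that can be told from it.

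**Figure D1:**
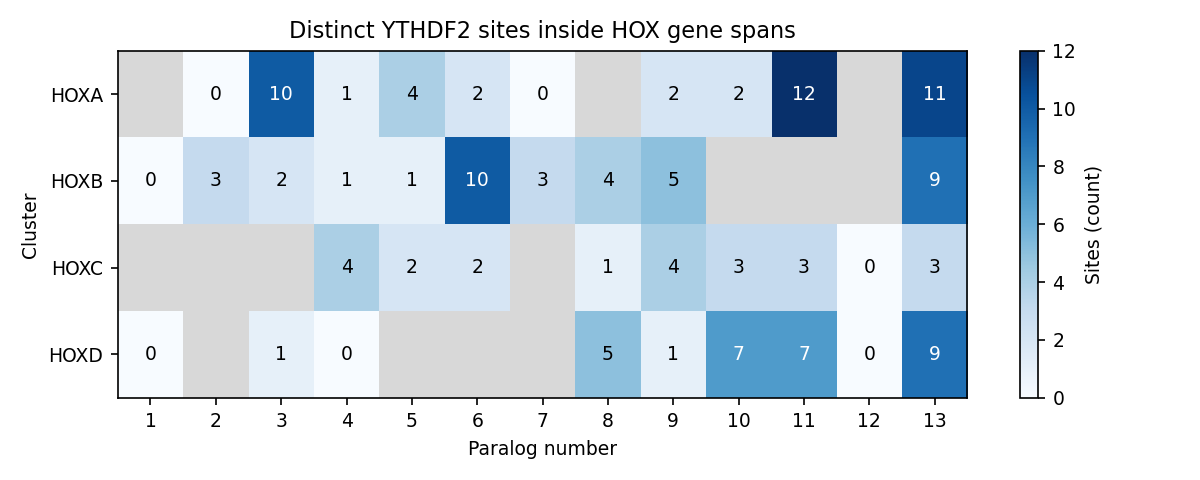
Number of distinct YTHDF2 sites inside the span of each HOX gene, by cluster (rows) and paralog number (columns), with darker blue for more sites. Grey cells have no protein-coding gene or are not shown. Paralog 13 is bound in all 4 clusters with 3 to 11 sites, and both genes of paralog 12 have 0.

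Sites were found in every cluster. HOXA had 42 sites in 9 of 11 genes, HOXB 37 in 9 of 10, HOXC 18 in 8 of 9 and HOXD 30 in 6 of 9. Per kb of sequence covered by at least 1 span, HOXA had 0.552 sites, HOXB 0.50, HOXC 0.267 and HOXD 0.580. HOXC thus had the lowest count and density. Its most bound genes, HOXC4 and HOXC9, had 4 sites each, against up to 12 in HOXA, 10 in HOXB and 9 in HOXD. The 7 genes without a site were HOXA2 and HOXA7, HOXB1, HOXC12, and HOXD1, HOXD4 and HOXD12. HOXB1 and HOXA2 pattern the hindbrain and the neural crest that leaves it, and HOXD12 acts in the limb.

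By paralog number, over the 4 clusters together, sites were most frequent in the posterior genes. Paralogs 9 to 13 held 78 of the 127 positions (61.4%) in 14 of 16 genes bound, and the unbound ones were both genes of number 12. Paralogs 4 to 8 had 36 positions in 13 of 15 genes, and paralogs 1 to 3 had 21 in 5 of 8, with positions in nested spans counted in each class that holds them. Per kb of covered sequence there were 0.964 sites in paralogs 9 to 13, 0.455 in paralogs 4 to 8 and 0.175 in paralogs 1 to 3. The long spans of HOXA3, HOXB3, HOXC4 and HOXD3, of 45.6, 41.4, 39.1 and 20.6 kb, enter these densities and lower them for the first 2 classes. The order did not hold in every cluster. In HOXD the density was 0.963 in paralogs 9 to 13 and 1.07 in paralogs 4 to 8. In HOXA, HOXB and HOXC it was 1.22, 1.52 and 0.529 in paralogs 9 to 13. In paralogs 4 to 8 of these clusters it was 0.686, 0.891 and 0.116. By count, HOXB had 14 positions in paralogs 9 to 13 and 19 in paralogs 4 to 8. The median score was 7.41 in paralogs 9 to 13, 8.19 in paralogs 4 to 8 and 5.30 in paralogs 1 to 3, so the classes differed in number of sites more than in score.

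The genes of paralog 13, the last of each cluster, were bound in every cluster. HOXA13 and HOXD13 shape the digits and the genital tubercle, HOXB13 is a marker of prostate and distal gut, and HOXC13 acts in hair follicles and nails. HOXA13 had 11 sites, HOXB13 and HOXD13 had 9 each and HOXC13 had 3, which makes 32 of the 127 positions. Paralog 11 had 22, with 12 in HOXA11, 7 in HOXD11 and 3 in HOXC11. Paralog 10 had 12, with 7 in HOXD10, 3 in HOXC10 and 2 in HOXA10. Paralog 9 had 12 as well, with 5 in HOXB9, 4 in HOXC9, 2 in HOXA9 and 1 in HOXD9. HOXA9, a driver of acute leukaemias, was thus among the lightly bound members, and HOXB9 was the most bound of its number.

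HOXA11 had the most sites of all HOX genes, 12, or 2.94 per kb of its 4.08 kb span, all of them in this span alone. It works with its HOXD11 paralog in the mouse kidney and forearm. Its sites ran from 27184870 to 27181798 in the direction of transcription on chromosome 7 (GRCh38, minus strand) and fell into 2 stretches. The upstream 3 lay between 362 and 779 nt from the 5′ end, with scores of 11.3, 4.16 and 1.95. The other 9 followed after a gap of 1620 nt, between 2399 and 3434 nt. Within the downstream stretch the higher scores lay at its 3′ end, with 76.3 at 27182058, 17.3 at 27181930 and 38.6 at 27181798, while the 6 sites upstream of these ranged from 0.18 to 12.7. The score is the authors' own number for a site, on an unstated scale, and it ranks sites within the list only. A position on 2 rows of the list is given its higher score. The score of 11.3 in HOXA11 is of this kind, with another row of 3.50.

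HOXA13 had 11 sites, or 1.92 per kb, in 3 groups. The first 6 lay within 344 nt, from 1734 to 2078 nt past the 5′ end, and included its highest scores, 73.4 at 27198316 and 39.9 at 27198151. A pair followed at 27196487 and 27196446 with scores of 19.1 and 11.1, after a gap of 1526 nt. The score of 19.1 belongs to a position on 2 rows, whose other row gives 7.01. The last 3 lay 559 to 882 nt before the 3′ end and scored 9.37 or less. In HOXA13 the highest scores thus lay towards the 5′ end, whereas in HOXA11 they lay towards the 3′ end.

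HOXB13 had 9 sites, or 2.26 per kb, spread over 3.26 kb of a 3.99 kb span on chromosome 17. They included 3 pairs with members 21 to 49 nt apart. The middle pair, at 48726703 and 48726680, scored highest, at 84.5 and 33.5. The pair near the 5′ end, at 48728143 and 48728094, scored 18.8 and 6.46. The pair near the 3′ end, at 48724904 and 48724883, scored 2.32 and 7.95. The remaining 3 sites scored 3.27, 1.44 and 0.068, the last of these among the lowest scores of the HOX sites. The score of 84.5 belongs to a position on 2 rows, whose other row gives 9.20.

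HOXD13 had 9 sites on chromosome 2, of which 5 lay within 91 nt, from 176094568 to 176094659, as the longest chain of close sites in any HOX gene. Their scores were 23.3, 68.1, 69.1, 19.9 and 35.6 in order from 5′ to 3′, all above the median of 8.67 over the whole list. The score of 19.9 belongs to a position on 2 rows, whose other row gives 5.71, below that median. Upstream of the chain were sites at 176093125 and 176093396, scoring 59.9 and 26.7, and downstream a pair at 176095640 and 176095670, scoring 4.70 and 41.6. The median score in HOXD13 was 35.6, against 9.37 in HOXA13, 6.46 in HOXB13 and 2.47 in HOXC13. These medians use the higher score of positions on 2 rows, of which HOXD13 had 3, HOXB13 2, and HOXA13 and HOXC13 1 each. The scores of 59.9 and 26.7 in HOXD13 are of this kind, with other rows of 13.5 and 14.6. The first site lay 404 nt downstream of the start that the promoter table gives, though the gene's annotated span begins farther upstream and puts it 5638 nt from its 5′ end.

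HOXB6 had 10 sites on chromosome 17, or 1.08 per kb. It is expressed in limb and lung development and in erythroid precursors. A pair lay near the 5′ end of the span, at 48604702 and 48604670, and a gap of 6455 nt separated it from the other 8. The highest scores, 44.7 at 48596175 and 69.7 at 48596141, stood in a chain of 3 sites within 46 nt, 378 to 424 nt before the 3′ end. Its lowest score, 0.33 at 48596291, lay between that chain and 48596390, which scored 2.81. Neighbouring sites thus differed widely in score within 1 gene.

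HOXA3, which is needed for the thymus and parathyroid in the mouse, had 10 sites by span, but only 3 in its span alone. These were at 27110443, 27108414 and 27107979, between 3433 and 969 nt before the 3′ end, and scored 26.5, 16.6 and 3.50. The other 7 lay in the nested genes HOXA4 with 1, HOXA5 with 4 and HOXA6 with 2. The transcript that gave rise to these cannot be read from the positions.

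**Figure D2:**
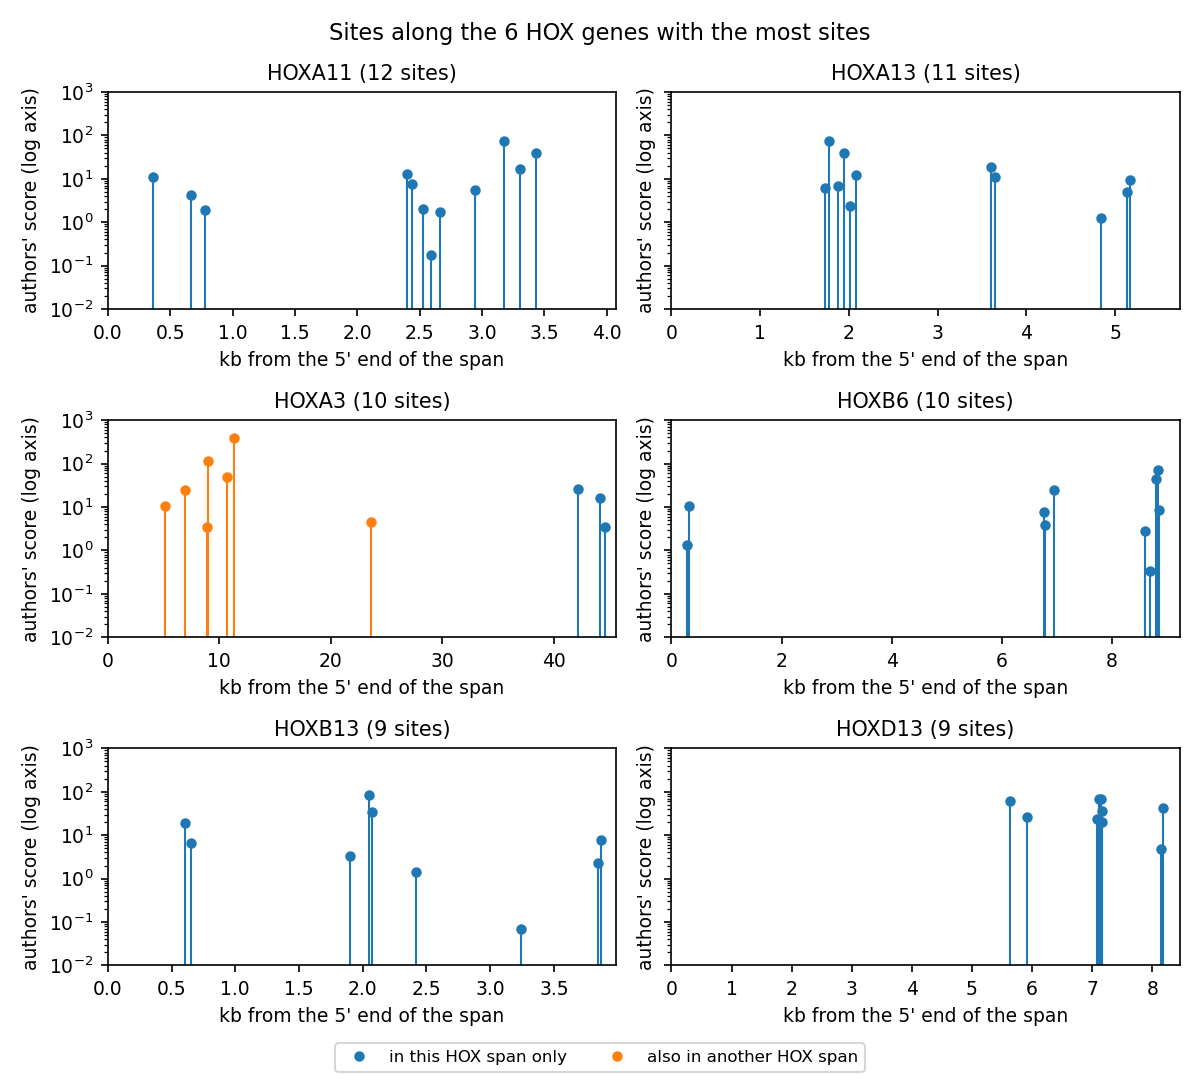
Position of each YTHDF2 site along the 6 HOX genes with the most sites, in kb from the 5′ end of the gene span (x axis), against the authors' score on a log axis. Blue sites lie in that HOX span alone and orange sites also lie in another one. HOXA11 and HOXB6 have a gap between upstream and downstream sites, HOXD13 has 5 sites within 91 nt, and 7 of the 10 sites of HOXA3 are orange.

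HOXB9 and HOXA5 held the HOX sites with the highest scores, and are described here because of those values. HOXB9, which patterns the thorax and its skeleton in the mouse, had 5 sites, and the one at 48623015 on chromosome 17 scored 546, exceeded by 19 of the 37613 positions. A group of 3 near its 5′ end, at 48625852, 48625800 and 48625773, scored 50.2, 103 and 25.4. The scores of 50.2 and 25.4 belong to positions on 2 rows, whose other rows give 26.2 and 6.74. The remaining site, at 48621984, scored 1.76. The highest site lay 1859 nt before the 3′ end of the span.

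HOXA5, required for lung and respiratory tract development in the mouse, had 4 sites, all of them also inside the HOXA3 span. The one at 27141243 on chromosome 7 scored 389, exceeded by 50 positions, and lay 191 nt before the 3′ end of HOXA5. Another at 27143588, 93 nt from the 5′ end, scored 113. The site at 27141937 scored 49.4 and the one at 27143657 scored 3.41. HOXA5 thus had high-scoring sites near both of its ends, and HOXB9 had them near its 5′ end and in its interior.

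A score of 100 or more was reached by 4 HOX positions (3.15%), against 3.24% of all positions. They lay in the spans of 3 HOX genes, HOXA3, HOXA5 and HOXB9 (7.69%), against 4.21% of all protein-coding genes. Over the 127 HOX positions the median score was 7.32, with quartiles of 3.60 and 23.0, against 8.67 with quartiles of 3.75 and 20.8 over the whole list. The median HOX position stood at percentile 44.7 of the list. In score the HOX sites thus covered nearly the whole range of the list, from 0.063 in HOXA10 to 546 in HOXB9, with a middle close to that of the list. In 20 of the 32 bound genes the highest site reached the median of the list or more. The same share over all bound genes was not computed, so this count does not set HOX genes apart.

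**Figure D3:**
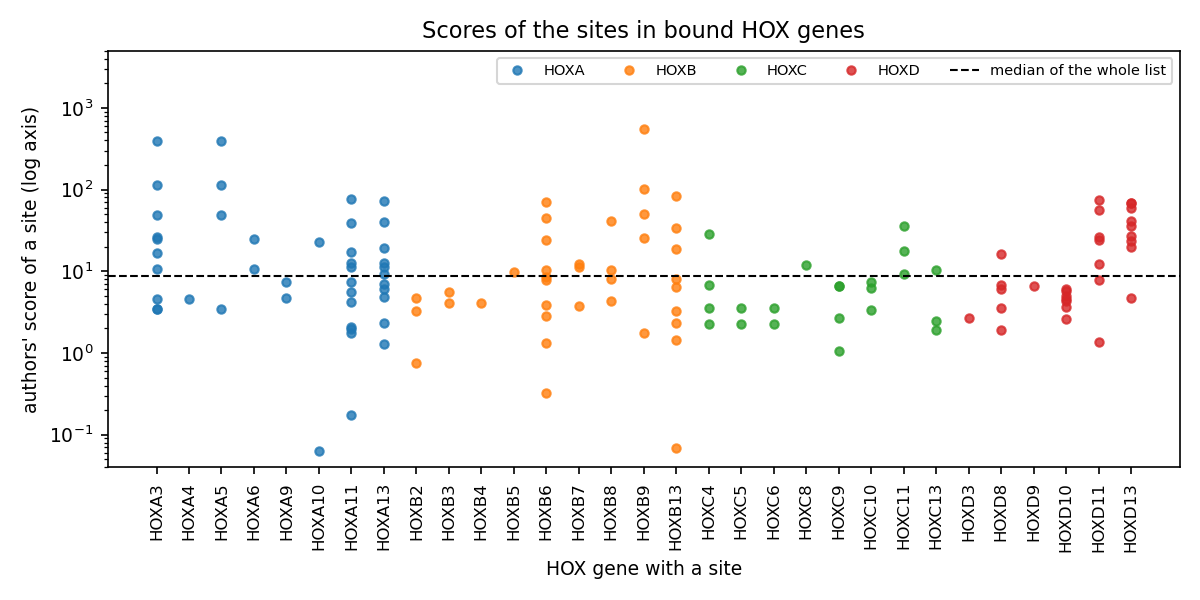
Authors' score of every site (points, log axis) in bound HOX genes, ordered by cluster and paralog number and coloured by cluster. The dashed line is the median of the whole list, 8.67. HOXB9 and the shared sites of HOXA3 and HOXA5 reach above 100, and all 7 sites of HOXD10 lie below the line.

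Genes with similar numbers of sites differed in score. HOXD10 had 7 sites, all scoring between 2.64 and 6.13, in a group of 4 between 188 and 421 nt from the 5′ end and a group of 3 between 2426 and 2777 nt. HOXD11, its neighbour and a partner of HOXA11 in the limb and kidney, also had 7 sites, scoring 1.38 and more, with 5 of them between 1733 and 2006 nt from the 5′ end. The highest, at 176109013, was 75.04. HOXD10 and HOXD11 thus had equal counts, but the median score was 4.64 in HOXD10 and 23.8 in HOXD11. The HOXD11 median uses the higher score of 2 positions on 2 rows, 26.1 and 55.5, whose other rows give 1.16 and 8.75. With those lower scores the middle one of the 7 HOXD11 scores would be 8.75, still above the 4.64 of HOXD10. HOXD10 had 0 positions on 2 rows.

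The first HOXD11 site, at 176107360, lay 80 nt from the annotated start, the closest of any site to a start in the promoter table among HOX genes. The window at that start, chr2:176107030-176107329 on the plus strand, is shown with the bases from the start onwards in capitals. It ends before the site.
HOXD11: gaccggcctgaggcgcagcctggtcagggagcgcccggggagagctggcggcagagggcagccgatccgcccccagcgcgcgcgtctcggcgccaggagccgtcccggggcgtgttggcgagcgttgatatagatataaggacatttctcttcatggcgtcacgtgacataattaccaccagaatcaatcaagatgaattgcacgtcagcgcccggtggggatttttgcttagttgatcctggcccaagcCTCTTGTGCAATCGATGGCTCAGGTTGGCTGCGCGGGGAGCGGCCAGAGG
The site scored 1.38, at percentile 9.73 of the list. The promoter table has 27 windows for 20 HOX genes, and 0 sites lay in any of them. HOXB7 and HOXA5, which it does not hold, had sites at 19 and 24 nt from the 5′ end of their spans. Those sites scored 3.74 in HOXB7 and 3.41 in HOXA5, both below the median of the whole list, whereas the next site of HOXA5, 93 nt from the 5′ end, scored 112.8.

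Of the 26 HOX genes with 2 or more sites, 16 had sites in both the upstream and the downstream 50% of the span. HOXA10, HOXB2, HOXC5, HOXC6, HOXC10, HOXC11, HOXC13 and HOXD13 had them in the downstream 50% alone, and HOXA9 and HOXD11 in the upstream 50% alone. For HOXD13 this depends on the annotated span, which begins upstream of the start in the promoter table. Its first site lies 5638 nt from the 5′ end of the span but 404 nt from that start. The split from that start was not computed, and the counts below include all 9 HOXD13 sites as downstream. Of the 117 positions in a single HOX span, 76 (65.0%) were in the downstream 50%. Among HOX genes of 10 kb or less this was 69 of 110 (62.7%), against 67.2% of 4598 sites in 1145 other genes of that size whose strand the promoter table gives. The lean towards the 3′ end was therefore near that of other compact genes. Neither exons nor coding ends were used here, so coding and untranslated sites were not separated.

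The less bound genes with sites on both sides of a wide gap included HOXC9, HOXB7 and HOXB8. HOXC9 had 2 sites between 310 and 446 nt from the 5′ end and 2 between 2389 and 2672 nt. HOXB8, known for roles in myeloid cells and microglia of the mouse, had 1 site at 661 nt and 3 within 50 nt of each other at 1872 to 1922 nt, of which 48613382 scored 41.0. HOXB7 had sites at 19, 3202 and 3567 nt, scoring 3.74, 12.2 and 11.4.

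Single sites were found in HOXA4, HOXB4, HOXB5, HOXC8, HOXD3 and HOXD9, scoring 4.62, 4.11, 9.93, 11.8, 2.68 and 6.68. HOXB4, known for expanding blood stem cells, shares its site with HOXB3. Other genes with few sites had them close together. HOXC11 had 3 within 196 nt, the highest at 35.7, and HOXC10 had 3 within 76 nt, the highest at 7.42. HOXB2 had 3 within 171 nt near its 3′ end, scoring up to 4.72, and HOXC13 had 3 within 758 nt, scoring up to 10.3. HOXD8 had 5 within 849 nt, scoring up to 16.5.

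A neighbour within 50 nt was present for 49 of the 127 HOX positions (38.6%, exact binomial 95% interval 30.1 to 47.6, which covers counting error only), against 29.7% over the whole list. The share was 23.8% in HOXA, 54.1% in HOXB, 11.1% in HOXC and 56.7% in HOXD. The 49 positions formed 22 chains in 13 genes, 19 of them pairs. The others were the 5 sites of HOXD13 and the groups of 3 in HOXB6 and HOXB8. Sites in a chain share the surrounding sequence and are not independent. The binomial interval treats each position as independent, so it is likely too narrow. With sites within 50 nt merged, 100 HOX sites remained in the same number of genes, 32.

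The HOX clusters also encode microRNAs, and miR-196 is known to direct cleavage of the Hoxb8 mRNA in mouse embryos, which makes these RNAs of interest beside the sites. RefSeq places 8 microRNA hairpins within the outer limits of the clusters, and 0 sites lay in any of them on their strand. The nearest were a site 408 nt from MIR3185, which lies beyond the 3′ end of HOXB13, and one 1776 nt from MIR196B, between HOXA9 and HOXA10. MIR615 lies in the spans of HOXC4 and HOXC5, 3982 nt from the nearest site, and MIR10A in that of HOXB3, 3300 nt away. The mature forms of this cluster family are shown with the seed, bases 2 to 8, in capitals, since miR-196a and miR-196b share it and miR-10a and miR-615 have others.
hsa-miR-196a-5p: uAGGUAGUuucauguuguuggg
hsa-miR-196b-5p: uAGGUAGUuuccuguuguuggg
hsa-miR-10a-5p: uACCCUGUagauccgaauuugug
hsa-miR-615-3p: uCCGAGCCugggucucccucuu
The sequences are from RefSeq on GRCh38.p14. Whether a HOX site overlaps a seed match was not tested, since no genome sequence was used here.

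Genes that work with HOX proteins were often bound as well. Of 9 genes for TALE-class cofactors, which bind DNA together with HOX proteins, 7 had a site, with a median of 2. MEIS2 and PBX2 had 4 each, PKNOX2 had 3 and PKNOX1 had 2, while PBX4 and MEIS3 had 0. Of 15 regulators of HOX genes, 11 had a site, with a median of 6. KMT2A, the trithorax-type methyltransferase that keeps HOX genes active, had 30 sites, CTCF, which marks boundaries in the clusters, had 13, CDX2, a caudal-type activator, had 11, and BMI1 of the Polycomb repressors had 7. EZH2, the Polycomb methyltransferase, had 0. Of 6 HOX inhibitors and partners all had a site, led by the acetyltransferases EP300 with 23 and CREBBP with 20, then SMAD1 with 9 and SMAD4 with 5.

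Of 18 other homeobox genes of the ANTP class, to which HOX genes belong, 8 had a site (44.4%), and this share was not tested against that of the HOX genes. EN2 had 9 sites, DLX2 4, and DLX1 and EN1 3 each. EVX1 and EVX2, which lie beside HOXA13 and HOXD13, had 0, although those HOX neighbours had 11 and 9. Of 9 kidney lineage genes 5 had a site, led by SALL1 with 15, SIX2 with 7 and EYA1 with 2, while PAX2, PAX8 and LHX1 had 0. Of 6 haematopoietic markers 0 had a site. A list of binding sites is no measure of expression, so these counts do not check the identity of the cells.

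**Figure D4:**
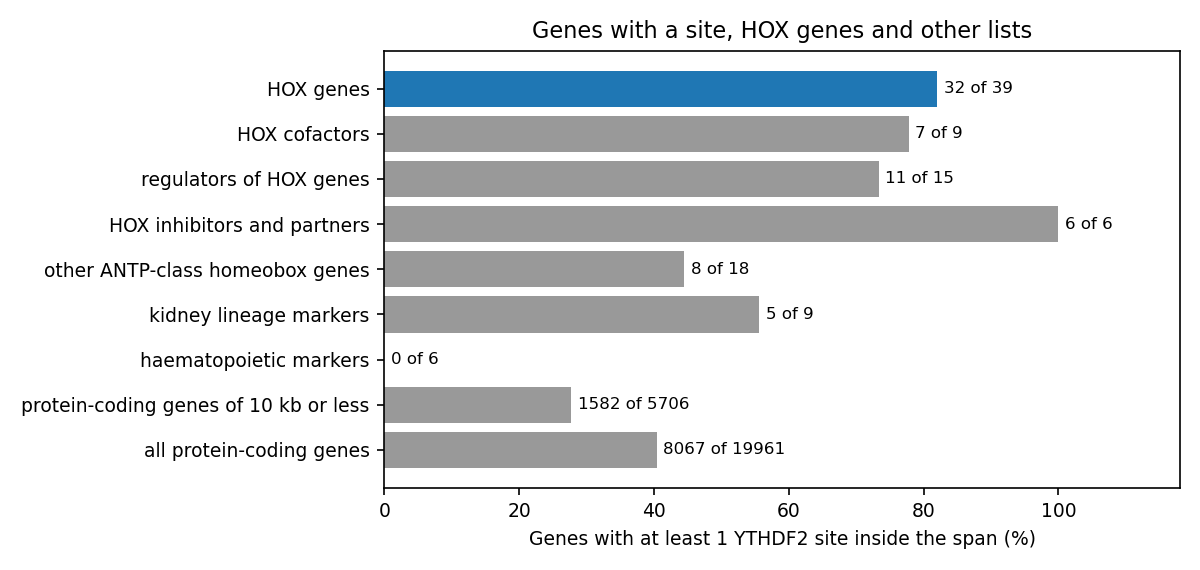
Share of genes with at least 1 YTHDF2 site inside the span (bars, %), for the HOX genes (blue) and for other gene lists and all protein-coding genes (grey), with the numbers of genes beside each bar. HOX genes stand at 82.1%, other ANTP-class homeobox genes at 44.4% and all protein-coding genes at 40.4%.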

How the data were processed

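The 8 libraries, 4 with STM2457 and 4 with DMSO, were grouped by their titles. The authors deposited 1 list without a header, with a chromosome, a 1 nt position, a strand and a score per row, and 0 columns of values for single samples. The deposited score is a positive number on an unstated scale. Per the submitters' processing notes, the build was GRCh38.p12 and the tools included STAR (2.7.3a), UMI-tools (1.0.0), bedtools (2.27.1) and FastQC (0.11.8), without their roles. The site caller, the way replicates were combined, and how reads from near-identical stretches of paralogs were assigned were not given in the sources used here.

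In all, 43178 rows gave 37613 distinct positions (chromosome, end, strand), keeping the higher score where a position was on 2 rows. Positions are counted from 1. Gene spans came from RefSeq on GRCh38.p14, whose patches leave the main chromosomes unchanged, and 95 readthrough genes were left out. A site counts for every gene whose span holds it. For genes other than HOX, strand was not required. Distances run from the ends of the span. The strand of a cluster is that of its promoter table entries, which cover 20 of the 39 genes. Percentiles are ranks by score over all distinct positions.

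Members and gene lists were chosen with earlier results of these data known. The rule was to name every HOX gene, and some genes that it selects are not reported here. The 6 with the most sites are described site by site, and HOXB9 and HOXA5 were added after their values were seen. Protein sequences were not used here. The join was tested on simulated sites with known counts. Alternatives were sites within 50 nt merged, only sites at or above the median score, the lower score of repeated positions, the longer part of the list by row order, single-span positions, and spans extended by 1000 nt. Computation used Python 3.11.15 with pandas 2.3.3, numpy 2.4.6 and scipy 1.17.1.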

Additional observations from a re-analysis of the deposited data

How the results depend on the processing

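Of 71 recomputed values, 60 stayed within 1.5 times the count given, or within the 95% interval for a median or share. Some of these could not move. Taking the lower score of repeated positions changes no position, so every count and the share with a neighbour stay the same by construction. The count in the downstream 50% already uses single-span positions only. The tally is therefore no measure of how stable the results are. Keeping the sites at or above the median score, which by construction removes about 1 in 2 positions, left 20 HOX genes with 56 sites, of which 20 were in HOXA, 16 in HOXB, 6 in HOXC and 14 in HOXD, and 34 were in the downstream 50% of a single span. It put the median percentile among the remaining sites at 58.5, and left 2 genes of paralogs 1 to 3 and 9 genes of paralogs 9 to 13. Counting only positions in exactly 1 HOX span left 7 genes of paralogs 4 to 8, where 13 were counted otherwise. Alternatives for the classes of paralogs were chosen after seeing the data. With merged sites the share with a neighbour is 0 by construction and was not computed. No paired analysis was possible because the list has no value per library, and for the same reason no replicate could be left out.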

Other observations

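Of the 127 HOX positions, 21 were on 2 rows of the list (16.5%, against 14.8% of all positions), in the spans of 15 genes, and in 10 of them the higher score was at least 2 times the lower. By row order the list falls into a shorter and a longer part, whose libraries are not labelled. In HOXD11, 176109254 scored 26.1 on one row and 1.16 on the other, and 176109286 scored 55.5 and 8.75. In HOXB13, 48728143 scored 18.8 and 1.69. Only the shorter part held 11 HOX positions (8.66%, against 8.96% of all positions), among them both sites of HOXB3 and the single sites of HOXB5 and HOXD9. With the longer part alone 28 HOX genes had a site.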
